A study of Columba livia with 16 samples.

Results

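Some stretches of the pigeon genome carried a peak of histone acetylation in the hindlimb of one breed and in the forelimb of the other, and in neither of the remaining limbs. These regions, shared crosswise between breeds and limbs, numbered 898 of 26456 merged regions (3.39%, 95% Wilson interval 3.18–3.62%). They were found by pooling the 4 deposited peak lists, joining peaks that overlapped by at least 1 bp into merged regions, and keeping the regions with peaks in exactly 2 lists that differed in both breed and limb. The regions were thus chosen by the measured presence of a peak, so the counts below describe the lists and carry no test. In the fantail hindlimb direction, a region was in the lists of Indian fantail hindlimbs and racing homer forelimbs. In the fantail forelimb direction, it was in the lists of Indian fantail forelimbs and racing homer hindlimbs.

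The libraries came from limb buds of embryos at Hamburger-Hamilton stage 25, processed by chromatin immunoprecipitation and sequencing (ChIP-seq) for acetylated lysine 27 of histone H3 (H3K27ac). The Indian fantail has small feathered muffs on its feet, and the study describes it as carrying a deletion upstream of *Pitx1*. The racing homer has scaled feet. There were 2 ChIP and 2 input libraries for each of Indian fantail hindlimbs, Indian fantail forelimbs, racing homer hindlimbs and racing homer forelimbs, 16 in all, and each breed and limb had a single peak list. Neither the number of embryos behind a library nor their line within a breed is given in the sources used here, so a breed is represented by an unknown number of embryos, and a difference between breeds cannot be told apart from a difference between those embryos.

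H3K27ac is laid down on nucleosomes beside active enhancers and promoters and is used to map them. Forelimb and hindlimb buds of birds share most of the enhancers that pattern a limb, and differ at those controlled by limb identity factors, among them Tbx5 in the forelimb and Pitx1 in the hindlimb. The study compared enhancer activity in the limbs of these breeds genome-wide, and the crosswise regions are those where the hindlimb of one breed was listed with the forelimb of the other. The fantail forelimb direction is the counterpart of the fantail hindlimb direction in the same lists.

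The lists differed in length. The Indian fantail lists held 22407 hindlimb and 15357 forelimb peaks, and the racing homer lists held 18821 hindlimb and 16474 forelimb peaks. Scores began at 50 in 3 lists and at 50.01 in the racing homer forelimb list, and list medians were between 119 and 136. A score is the number that the authors' peak caller attached to a peak. Its scale is not given in the sources used here, so levels are compared through percentiles, the share of a list's own peaks with a lower score. Raw scores of different lists are printed side by side to show the data, and their sizes are not comparable. The limits of 60 and 100 used below are single cut-offs applied to all 4 lists. The lists hold no read counts, so the depth behind a peak is unknown, and a limb without a listed peak may still carry acetylation below the calling threshold. Since a list does not separate its replicates, spread between replicates could not be given, and all intervals are 95% Wilson intervals that cover counting error only.

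The fantail hindlimb direction held 696 regions, 2.63% of all merged regions, and the fantail forelimb direction held 202, 0.764%. The intervals were 2.44–2.83% and 0.666–0.876%. Of the crosswise regions, 77.5% (74.7–80.1%) were thus regions where Indian fantail hindlimbs shared a peak with racing homer forelimbs, a ratio of 3.45 (2.95–4.03) between the directions. The fantail hindlimb direction draws on the longest list, Indian fantail hindlimbs (22407 peaks), and on racing homer forelimbs (16474). The fantail forelimb direction draws on the shortest list, Indian fantail forelimbs (15357), and on racing homer hindlimbs (18821). With lists of equal length the ratio was 1.09 (0.937–1.26), as described below. That setting also removed the lowest-scoring peaks of the longer lists, so the bearing of list length on the ratio was not tested.

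Crosswise sharing made up 18.4% (17.3–19.5%) of the 4880 regions with peaks in exactly 2 lists. The other two-list regions were shared by the same limb of both breeds or by both limbs of the same breed. Indian fantail and racing homer hindlimbs shared 2464 regions, and their forelimbs shared 469. Indian fantail hindlimbs and forelimbs shared 715, and racing homer hindlimbs and forelimbs shared 334. The fantail forelimb direction was the least frequent of the 6 pairs of lists, while the fantail hindlimb direction exceeded the forelimb pair and the racing homer pair. Most merged regions were of other kinds, with 9718 (36.7%) in all 4 lists and 8190 (31.0%) in a single list.

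**Figure D1:**
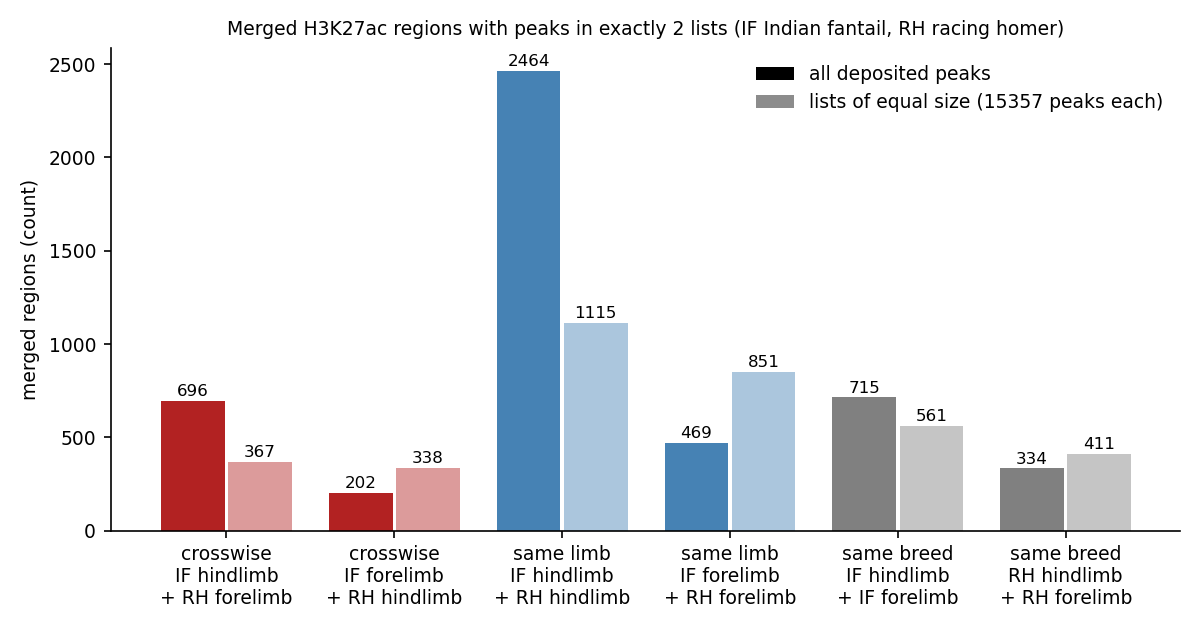
Number of merged regions with peaks in exactly 2 of the 4 lists, for each of the 6 pairs of lists (IF, Indian fantail; RH, racing homer). Solid bars use all deposited peaks and pale bars the 15357 highest-scoring peaks of each list; the crosswise pairs held 696 and 202 regions with all peaks, and 367 and 338 with lists of equal size, when they were the least frequent of the 6 pairs.

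The place of the crosswise partner differed between the lists. Among two-list regions with an Indian fantail hindlimb peak, 18.0% (16.8–19.2%) had the racing homer forelimb as partner, beside 63.6% with the same limb of the other breed and 18.5% with the forelimb of the same breed. For the racing homer forelimb, the crosswise partner was the most frequent, at 46.4% (43.9–49.0%), beside 31.3% for the Indian fantail forelimb and 22.3% for the racing homer hindlimb. For the fantail forelimb direction, the crosswise partner was the least frequent in both lists. It made up 14.6% (12.8–16.5%) of two-list regions of Indian fantail forelimbs and 6.73% (5.89–7.69%) of those of racing homer hindlimbs. With lists of equal size these shares were 18.0% for Indian fantail hindlimbs, 22.5% for racing homer forelimbs, 19.3% for Indian fantail forelimbs and 18.1% for racing homer hindlimbs. The crosswise partner was then the least frequent in every list. For racing homer forelimbs, the same-limb share was then 52.2% and the same-breed share 25.2%. With a mutual overlap of 50%, their same-limb share of 38.6% also exceeded the crosswise share of 34.4%.

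A related count takes the regions that lacked both the same-limb and the same-breed partner. Of 5124 such regions with an Indian fantail hindlimb peak, 13.6% (12.7–14.5%) also had a racing homer forelimb peak, and of 1861 with a racing homer forelimb peak, 37.4% (35.2–39.6%) had an Indian fantail hindlimb peak. Of 1104 such regions with an Indian fantail forelimb peak, 18.3% (16.1–20.7%) had a racing homer hindlimb peak, and of 1897 with a racing homer hindlimb peak, 10.6% (9.34–12.1%) had an Indian fantail forelimb peak. Most peaks that were missing from both neighbouring lists were therefore in no other list at all, in each of the 4 lists.

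Crosswise peaks were mostly among the weaker peaks of their lists. Scores and peak presence come from the same data, and the rule asks that 2 lists hold no peak. The scores are thus not independent of the rule. In the fantail hindlimb direction, the Indian fantail hindlimb peak had a median score of 77.4 (quartiles 62.5–105, range 50.1–324) and a median percentile of 24.9 in its list. The racing homer forelimb peak of the same regions had a median score of 67.3 (56.6–88.2, range 50.0–297) and a median percentile of 20.0. In the fantail forelimb direction, the Indian fantail forelimb peak had a median score of 65.6 (56.1–80.8, range 50.1–199) and a median percentile of 18.2, and the racing homer hindlimb peak had a median score of 67.9 (57.6–87.0, range 50.0–441) and a median percentile of 19.7. By construction, about 50% of the peaks of a list reach its median score. Of the crosswise peaks, 74 of 696 Indian fantail hindlimb peaks (10.6%), 41 of 696 racing homer forelimb peaks (5.89%), 11 of 202 Indian fantail forelimb peaks (5.45%) and 12 of 202 racing homer hindlimb peaks (5.94%) reached their list's median score. Same-breed sharing gave similarly low peaks in part. Indian fantail forelimb peaks shared with Indian fantail hindlimbs had a median percentile of 20.1, with 5.87% at or above the list median, and their hindlimb peaks had a median of 29.6. Regions shared by both racing homer limbs had medians of 23.7 in hindlimbs and 23.3 in forelimbs, so low scores were not particular to crosswise regions.

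Scores close to the calling threshold were found in crosswise regions and in same-breed regions. The share of all peaks of a list with a score under 60 was not computed. For scale, a score of 59.6 stood at percentile 10.6 of the Indian fantail hindlimb list, and 57.8 at percentile 10.1 of the Indian fantail forelimb list. A score of 60.8 stood at percentile 12.7 of the racing homer hindlimb list, and 62.2 at percentile 15.4 of the racing homer forelimb list. A score under 60 was found for 139 Indian fantail hindlimb peaks (20.0%) and 235 racing homer forelimb peaks (33.8%) of the fantail hindlimb direction, and for 69 Indian fantail forelimb peaks (34.2%) and 64 racing homer hindlimb peaks (31.7%) of the fantail forelimb direction. In regions shared by both limbs of a breed, the shares were 16.9% of Indian fantail hindlimb, 32.0% of Indian fantail forelimb, 27.5% of racing homer hindlimb and 26.9% of racing homer forelimb peaks. They were lower in regions shared by the same limb of both breeds. There they were 13.0% of Indian fantail hindlimb, 17.5% of Indian fantail forelimb, 21.1% of racing homer hindlimb and 20.0% of racing homer forelimb peaks. At the other end, only 2 Indian fantail hindlimb and 3 racing homer forelimb peaks of the fantail hindlimb direction, and 0 Indian fantail forelimb and 1 racing homer hindlimb peak of the fantail forelimb direction, lay among the highest-scoring 25% of their lists.

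**Figure D2:**
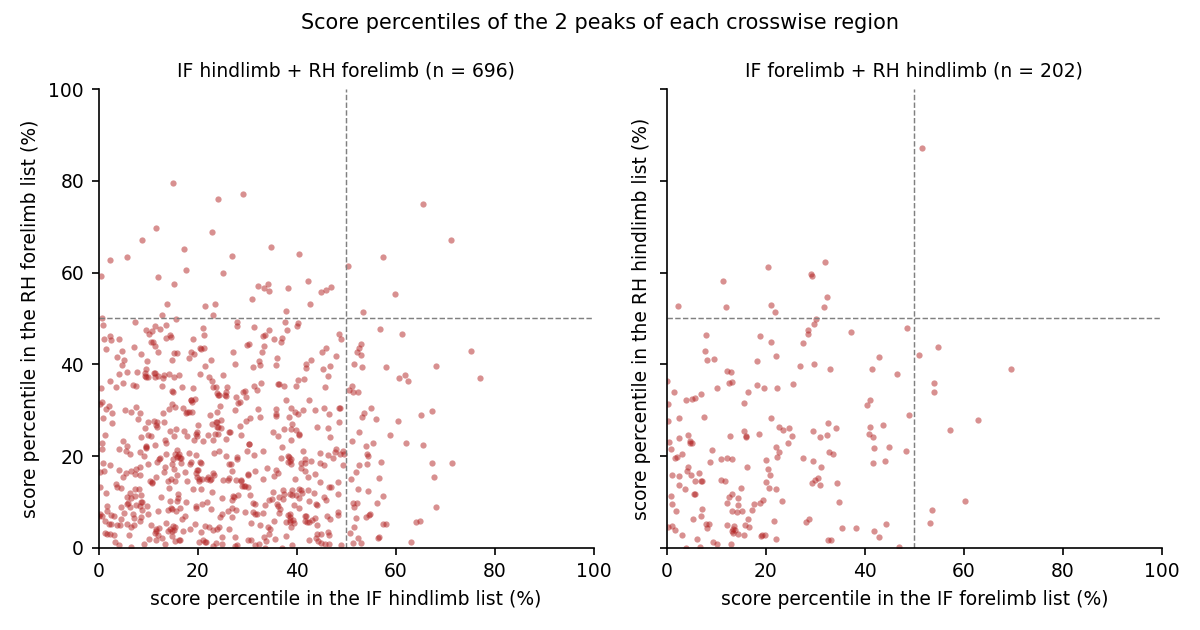
Score percentile of the 2 peaks of each crosswise region, each within its own list, with the Indian fantail peak on the horizontal axis and the racing homer peak on the vertical axis (%; each point is a region). Dashed lines mark the 50th percentile; 6 of 696 regions in the left panel and 1 of 202 in the right panel lie above it in both lists.

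Within a region, a high score in one list did not go with a high score in the other in the fantail hindlimb direction. Spearman's rank correlation of the paired scores was -0.01 over its 696 regions, and 0.20 over the 202 regions of the fantail forelimb direction. For the pairs that shared a limb it was 0.32 over 2464 regions and 0.37 over 469, and for those that shared a breed it was 0.12 over 715 and 0.15 over 334. These are descriptions across regions of the same libraries, which are not independent. Both peaks reached the median score of their list in 6 regions of the fantail hindlimb direction (0.862%) and in 1 of the fantail forelimb direction (0.495%). In regions shared by hindlimbs this share was 8.81% and in those shared by forelimbs 12.2%, while it was 1.96% for the Indian fantail pair and 3.29% for the racing homer pair.

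The same pairs of lists also differed in how strong their strongest region was. The highest score percentile reached by both peaks of a region was 67.1 in the fantail hindlimb direction and 51.5 in the fantail forelimb direction. It was 99.6 for the hindlimb pair and 99.7 for the forelimb pair, where both peaks scored 3100, the value that many of the strongest peaks share. It was 64.5 for both limbs of the Indian fantail and 94.0 for both limbs of the racing homer. Crosswise regions therefore had no counterpart of the very strong peaks that hindlimbs or forelimbs of both breeds shared.

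The scarcity of strong crosswise peaks showed as a gradient when each list was divided by score into 5 classes of equal size. From the lowest to the highest class, 6.27%, 5.60%, 3.30%, 0.469% and 0% of Indian fantail hindlimb peaks lay in crosswise regions. For racing homer forelimb peaks the shares were 10.6%, 7.04%, 3.01%, 0.546% and 0%. Both lists of the fantail forelimb direction fell off in the same way. The shares were 3.65%, 1.92%, 0.912%, 0.0977% and 0% of Indian fantail forelimb peaks, and 2.71%, 1.83%, 0.744%, 0.0531% and 0.0266% of racing homer hindlimb peaks, where the last value is 1 peak of 3764. Same-breed shares of Indian fantail forelimb peaks fell off likewise, at 11.8%, 7.49%, 3.78%, 0.391% and 0%. Those of Indian fantail hindlimb peaks were 5.04%, 5.87%, 3.99%, 1.18% and 0.112%, highest in the second class. In the highest class, same-breed sharing took 5 Indian fantail hindlimb, 0 Indian fantail forelimb, 6 racing homer hindlimb and 4 racing homer forelimb peaks. In that class, same-limb sharing took 32 Indian fantail hindlimb peaks (0.714%), 8 Indian fantail forelimb peaks (0.261%), 19 racing homer hindlimb peaks (0.505%) and 9 racing homer forelimb peaks (0.273%). Same-limb shares were likewise lowest in the highest class of every list. For racing homer hindlimb peaks they were 24.9%, 22.8%, 14.4%, 4.25% and 0.505% from the lowest to the highest class. In both Indian fantail lists the same-limb share was instead highest in the second class, at 18.05% of hindlimb and 5.08% of forelimb peaks. Beside them, the lowest class had 14.5% and 4.56%. A low share among the strongest peaks was therefore not particular to crosswise regions.

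**Figure D3:**
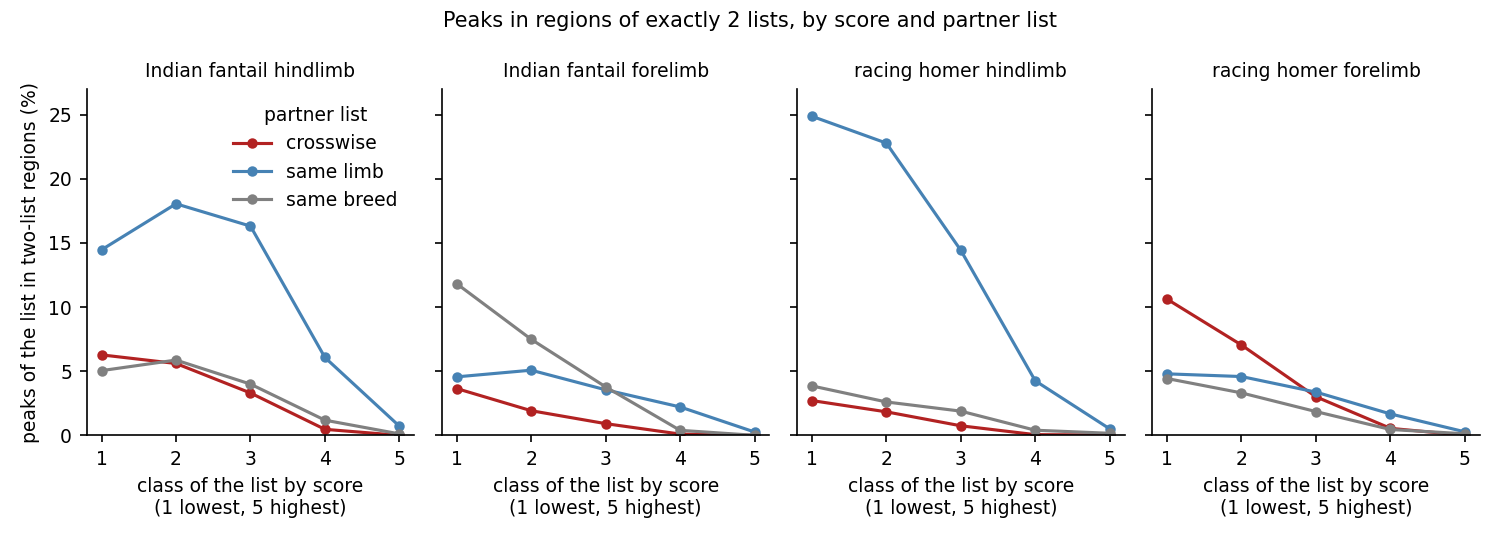
Share of the peaks of each list (%) that lay in regions of exactly 2 lists, in 5 classes of equal size from the lowest to the highest scores, for the crosswise, the same-limb and the same-breed partner. The crosswise share of racing homer forelimb peaks was 10.6% in the lowest class, above the same-limb share of 4.79%, and 0% in the highest class.

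The paired peaks covered much of the same sequence, although the rule asked for a single shared base. The overlap was a median of 70.1% of the merged region (quartiles 56.1–82.5%) in the fantail hindlimb direction and 71.4% (56.5–82.8%) in the fantail forelimb direction. It was at least 50% in 567 of 696 (81.5%) and in 171 of 202 (84.7%). The shared stretch had a median length of 904 bp in the fantail hindlimb direction and of 1011 bp in the fantail forelimb direction, and the same-limb and same-breed pairs had median overlaps of 69.8–76.7%. Nearly every crosswise region held a single peak from each list, 688 of 696 and 202 of 202. Among these, the Indian fantail peak was the wider one in 497 of 688 (72.2%, 68.8–75.5%) for the fantail hindlimb direction and in 109 of 202 (54.0%, 47.1–60.7%) for the fantail forelimb direction. Over the whole lists, median peak width was 1644 bp in Indian fantail hindlimbs and 1486 bp in racing homer forelimbs, and 1703 bp in Indian fantail forelimbs and 1596 bp in racing homer hindlimbs.

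The edge of the rule lay at small overlaps. The smallest in the fantail hindlimb direction was 19 bp, on scaffold 486 from 1005134 to 1007452, between an Indian fantail hindlimb peak with a score of 97.8 and a racing homer forelimb peak with a score of 55.4. Just outside the rule, on scaffold 16, 6 bp separated an Indian fantail hindlimb peak that scored 129 and ended at 1899145 from a racing homer forelimb peak that scored 97.7 and started at 1899152. The smallest overlap of the fantail forelimb direction was 95 bp, on scaffold 38 from 3418176 to 3420225, with a score of 57.8 in Indian fantail forelimbs and 50.6 in racing homer hindlimbs. The nearest pair just outside was 633 bp apart, on scaffold 455, with scores of 85.9 and 65.2. Such near misses within 1000 bp, with no other list involved, numbered 38 in the fantail hindlimb direction and 1 in the fantail forelimb direction.

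Several regions of the fantail hindlimb direction had clear peaks in both lists. The region with the highest pair of percentiles lay on scaffold 314 from 2842542 to 2846412. Its Indian fantail hindlimb peak had a score of 256 (percentile 71.2) and contained the whole racing homer forelimb peak, which spanned 2843258 to 2846061 and scored 190.3 (percentile 67.1). At 2804 bp this was also the longest overlap of the direction. The nearest Indian fantail forelimb peak was 3669 bp away with a score of 56.8, and the nearest racing homer hindlimb peak was 62316 bp away with a score of 105.

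The next region lay on scaffold 113 from 1310504 to 1312640, with a score of 212 in Indian fantail hindlimbs (percentile 65.6) and 247 in racing homer forelimbs (percentile 74.8). Here the missing limbs were closer, with a racing homer hindlimb peak of score 125 at 1400 bp and an Indian fantail forelimb peak of score 297 at 5871 bp. On scaffold 231, from 559564 to 561561, the pair had scores of 167 in Indian fantail hindlimbs and 170.4 in racing homer forelimbs and overlapped over 91.5% of the region. Its nearest Indian fantail forelimb and racing homer hindlimb peaks were 38038 and 24963 bp away. It was therefore an isolated crosswise peak, as was the region on scaffold 347 from 1001339 to 1002948. That region had a score of 177 in Indian fantail hindlimbs and 137 in racing homer forelimbs, and no Indian fantail forelimb peak within 50588 bp or racing homer hindlimb peak within 507026 bp.

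The fifth region, on scaffold 102 from 18165071 to 18167434, differed from these in its surroundings. Its scores were 149 in Indian fantail hindlimbs and 125 in racing homer forelimbs, but an Indian fantail forelimb peak with a score of 574 lay 1045 bp away and a racing homer hindlimb peak with a score of 624 lay 719 bp away. It stood beside peaks with high scores in the lists of the limbs that lacked it. The last of the 6, on scaffold 7 from 67767 to 71100, had a score of 137 in Indian fantail hindlimbs and 161 in racing homer forelimbs, with peaks of the other limbs 5126 and 5866 bp away.

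The weakest regions of this direction had a peak at the calling threshold in one list. On scaffold 220 from 390330 to 391913, the Indian fantail hindlimb peak had a score of 92.2 and the racing homer forelimb peak 50.0, and both other limbs had a peak of score 154 and 157 within 870 bp. On scaffold 7 from 15723552 to 15724264, the Indian fantail hindlimb peak had a score of 99.4 and the racing homer forelimb peak 50.0, with a racing homer hindlimb peak of score 76.8 only 52 bp away. The second-longest overlap, 2752 bp on scaffold 274 from 1657642 to 1661057, joined an Indian fantail hindlimb peak of score 84.3 to a racing homer forelimb peak of score 269.7. In that region an Indian fantail forelimb peak of score 266 lay 177 bp away.

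The highest percentile reached by both peaks was lower in the fantail forelimb direction, at 51.5 over 202 regions, beside 67.1 over 696 of the fantail hindlimb direction. The first of them, on scaffold 7 from 10358702 to 10381961, is also the widest crosswise region, at 23260 bp. It joined an Indian fantail forelimb peak 22991 bp wide with a score of 124 (percentile 51.5) to a racing homer hindlimb peak 4212 bp wide with a score of 441 (percentile 87.1), and the overlap covered only 17.0% of the region. The racing homer hindlimb peak, from 10377750 to 10381961, had the highest within-list percentile of any crosswise peak and stood near the right end of the broad forelimb peak. In the Indian fantail hindlimb list a peak of score 1585 began 1909 bp beyond the region, and in the racing homer forelimb list a peak of score 737 lay 1311 bp before it.

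All 4 lists had strong peaks on both sides of this region. To the left, Indian fantail hindlimbs had a peak of score 3100 from 10344998 to 10351240, and the highest-scoring peaks over it had scores of 2620 in Indian fantail forelimbs, 2055 in racing homer hindlimbs and 2161 in racing homer forelimbs. Between this peak and the crosswise region, only the forelimb lists had a peak, with a score of 524 in Indian fantail forelimbs and 737 in racing homer forelimbs. To the right, peaks with scores of 1585 in Indian fantail hindlimbs, 2403 in Indian fantail forelimbs, 1228 in racing homer hindlimbs and 1785 in racing homer forelimbs began between 10383871 and 10385089. The crosswise region thus lay between strong peaks of all 4 lists. Indian fantail hindlimbs had no listed peak between 10351240 and 10383871. Racing homer forelimbs had none between 10357390 and 10384764. Whether these limbs carried acetylation there below the calling threshold was not tested.

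The other named regions of the fantail forelimb direction were narrower, at 607–2375 bp. On scaffold 385 from 82430 to 83036, the peaks had scores of 115 in Indian fantail forelimbs (percentile 48.5) and 117 in racing homer hindlimbs (percentile 47.8), close in rank within their lists, and overlapped over 94.6% of the region, with the nearest peaks of the other limbs 29909 and 29953 bp away. On scaffold 218 from 289625 to 291159, the scores were 134 in Indian fantail forelimbs and 108 in racing homer hindlimbs, again with the nearest peaks of the other limbs far away, at 27183 bp in Indian fantail hindlimbs and 35579 bp in racing homer forelimbs. The peaks of these regions ranked near the middle of both lists. On scaffold 256 from 1063282 to 1065656, the scores were 121 in Indian fantail forelimbs and 104 in racing homer hindlimbs. On the short scaffold 1181 from 3478 to 4670, where neither of the other lists had any peak, they were 101.5 in Indian fantail forelimbs and 103 in racing homer hindlimbs.

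The sixth region lay on scaffold 593 from 206140 to 208182 and held the highest Indian fantail forelimb score of the direction, 199, beside a racing homer hindlimb score of 97.4. A racing homer forelimb peak of score 1489 lay 1645 bp away and an Indian fantail hindlimb peak of score 180.3 lay 2170 bp away, so this region too stood beside a peak that scored high in the list of a limb that lacked it. The weakest regions, on scaffold 16 from 7811791 to 7813059 and on scaffold 314 from 815755 to 818103, had scores of 52.8 and 54.9 in Indian fantail forelimbs and 50.0 and 50.1 in racing homer hindlimbs. The second-longest overlap, 2024 bp on scaffold 161 from 10262656 to 10265017, had a score of 80.9 in Indian fantail forelimbs and 62.9 in racing homer hindlimbs.

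At a minority of crosswise regions, a limb without a peak in the region had one close by. In the fantail hindlimb direction, an Indian fantail forelimb peak lay within 1000 bp of 100 of 696 regions (14.4%, 12.0–17.2%), and a racing homer hindlimb peak lay within 1000 bp of 134 (19.3%, 16.5–22.3%). Both did so at 86 regions (12.4%), where all 4 lists thus had a peak in the region or beside it, and at least one did at 148 (21.3%, 18.4–24.5%). In the fantail forelimb direction, an Indian fantail hindlimb peak lay within 1000 bp of 24 of 202 regions (11.9%, 8.12–17.1%) and a racing homer forelimb peak within 1000 bp of 18 (8.91%, 5.71–13.6%). At least one of them did at 27 regions (13.4%, 9.35–18.7%) and both at 15 (7.43%). For the same-limb and same-breed pairs the shares for single lists ran over a similar range, 7.19–19.6%.

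Most absent limbs were farther away than that. The median gap was 9759 bp to the nearest Indian fantail forelimb peak and 7741 bp to the nearest racing homer hindlimb peak in the fantail hindlimb direction, over the 687 regions with such a peak on their scaffold. It was 9162 bp to the nearest Indian fantail hindlimb peak and 14692 bp to the nearest racing homer forelimb peak in the fantail forelimb direction, over 201 regions. Where both peaks scored at least 100, an Indian fantail forelimb peak was within 1000 bp at 3 of 30 regions (10%, 3.46–25.6%) and a racing homer hindlimb peak at 5 of 30 (16.7%, 7.34–33.6%) of the fantail hindlimb direction. In the fantail forelimb direction, 5 regions had both peaks at 100 or more, and at none of them did either absent limb have a peak within 1000 bp, which allows a share of up to 43.4%.

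**Figure D4:**
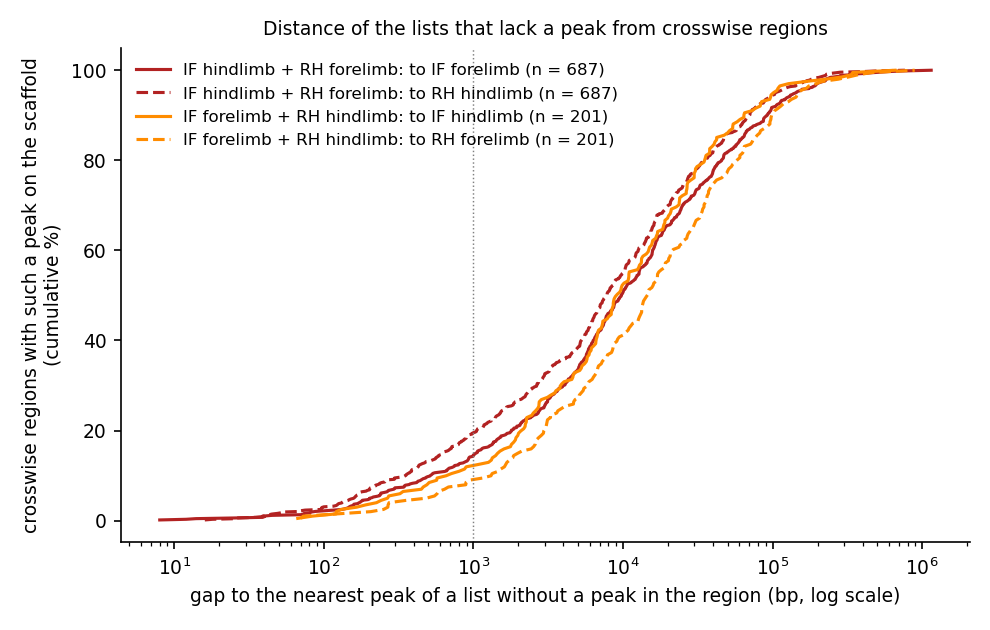
Cumulative share (%) of crosswise regions by the gap to the nearest peak of each list without a peak in the region (bp, log scale), for the regions with such a peak on their scaffold. The dotted line marks 1000 bp, within which between 8.91% and 19.3% of all regions of a direction had such a peak, and medians were between 7741 and 14692 bp.

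In 4 windows at the limb identity genes named in the study, 1 of 40 merged regions was crosswise (2.5%, 0.443–12.9%), beside 3.39% of all merged regions. However, 9 of the 40 lay in the interval that the study describes as deleted in the Indian fantail. A crosswise region needs an Indian fantail peak, so these could not be crosswise, and the 2 shares are not comparable. In the window of scaffold 70 that holds *Tbx5*, the T-box transcription factor of forelimb identity, none of 7 merged regions was crosswise. Of these, 5 were shared by the forelimbs of both breeds and 2 were in 3 lists. Both three-list regions had peaks in Indian fantail hindlimbs, Indian fantail forelimbs and racing homer forelimbs, so they combined the crosswise pair with the remaining forelimb and were missing only from racing homer hindlimbs. Both forelimb lists thus had a peak in all 7 regions, the Indian fantail hindlimb list in 2 and the racing homer hindlimb list in none. The study reports ectopic *Tbx5* expression in Indian fantail hindlimbs. It also places its most significant hindlimb difference in H3K27ac between these breeds directly upstream of *Tbx5*. The window lies at a locus that the study had singled out, and uses the same ChIP-seq data, so these counts are no independent check. In the neighbouring window of *Tbx3*, a T-box gene also active in limb buds, none of 8 regions was crosswise and 7 were in all 4 lists.

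On scaffold 79, none of 9 merged regions was crosswise in the interval that the study describes as deleted in the Indian fantail, where only racing homer peaks were listed, 4 regions in both limbs and 5 in a single limb. A deleted interval cannot hold an Indian fantail peak, so this outcome was fixed by the deletion. Of 16 regions in the adjoining window with *Pitx1*, the homeobox gene of hindlimb identity, 1 was crosswise, from 6779385 to 6780824. It had an Indian fantail hindlimb peak with a score of 54.1 (percentile 4.82) and a racing homer forelimb peak with a score of 62.2 (percentile 15.4), which overlapped over 1012 bp. Both scores were close to the calling threshold, and the absent limbs had peaks beside it, of score 95.2 in Indian fantail forelimbs at 644 bp and of score 110 in racing homer hindlimbs at 979 bp.

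Crosswise regions were spread over the genome. The fantail hindlimb direction had regions on 299 of 837 scaffolds, 150 of them with a single one, and the fantail forelimb direction on 134, 90 of them with a single one. Scaffold 7 held the most of both, 17 of the fantail hindlimb direction and 6 of the fantail forelimb direction among 663 regions, followed by scaffold 123 with 16 and 5 among 420. On the 10 scaffolds with the most merged regions, the fantail hindlimb direction took between 1.61% and 3.81% of regions and the fantail forelimb direction between 0.563% and 1.33%. The fantail hindlimb direction had more regions on each of these 10, and on 256 of the 332 scaffolds with any crosswise region, against 44 with more of the fantail forelimb direction and 32 with equal numbers. With all deposited peaks, the larger count of the fantail hindlimb direction was thus found on most scaffolds with any crosswise region. On many of these a direction had only a single region. No counts by scaffold are given for lists of equal size, where the ratio of the directions was 1.09.

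Neighbours of crosswise regions were in all 4 lists about as often as regions at large. Of the regions flanking those of the fantail hindlimb direction, 38.1% were in all 4 lists, and of those flanking the fantail forelimb direction 37.8%, beside 36.9% for all regions. The flanking region was crosswise in the same direction for 40 of 1351 neighbours (2.96%) in the fantail hindlimb direction and for 2 of 392 (0.510%) in the fantail forelimb direction, and it was of the opposite direction for 10 in each. Both values were close to the shares of these directions among all merged regions, 2.63% and 0.764%. Regions shared by hindlimbs had a hindlimb-shared neighbour in 11.2% of cases, and regions shared by forelimbs had a forelimb-shared neighbour in 7.51%, beside their shares of 9.31% and 1.77% among all regions.

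Clusters of crosswise regions were small. Within 100 kb of each other lay 74 pairs of the fantail hindlimb direction, 9 pairs of the fantail forelimb direction and 40 pairs of opposite direction. The larger direction has more possible pairs, and no share of possible pairs is given. These counts therefore do not compare clustering between the directions. The densest window of 1 Mb for the fantail hindlimb direction, on scaffold 893 from 1302 to 1001301, held 6 among 60 merged regions (10%, beside 2.63% of all regions) and none of the opposite direction, with peak scores of 53.2–157. For the fantail forelimb direction it held 3 among 25 (12%, beside 0.764% of all regions), on scaffold 3 from 264360 to 1264359, beside 1 of the opposite direction, with scores of 55.2–98.3. Both windows were picked for their high counts, so higher shares there follow from the choice.

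The closest regions of opposite direction lay 462 bp apart on scaffold 236. The region from 1841417 to 1843012 had scores of 59.6 in Indian fantail hindlimbs and 72.9 in racing homer forelimbs, and the region from 1843475 to 1844861 had scores of 67.3 in Indian fantail forelimbs and 67.3 in racing homer hindlimbs. Each breed and limb thus had a weak peak within the same short stretch, and neighbouring positions of those peaks made 2 crosswise regions of opposite direction.

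The number of crosswise regions, and the difference between the directions, depended on the settings. Each list was reduced to its 15357 highest-scoring peaks, the length of the shortest list. The fantail hindlimb direction then held 367 regions and the fantail forelimb direction 338, and the ratio of 1.09 (0.937–1.26) had an interval that included 1. The interval covers counting error only and regions of the same lists are not independent, so it is no test of equal directions. With 10000 peaks per list, a setting chosen after the data were seen, the directions held 251 and 214 regions, a ratio of 1.17 (0.978–1.41). In lists of equal size the crosswise pairs were the least frequent of the 6, beside 1115 regions shared by hindlimbs, 851 by forelimbs, 561 by both Indian fantail limbs and 411 by both racing homer limbs. When lists kept their unequal lengths, the ratio stayed above 1, at 2.02 (1.78–2.30) with a mutual overlap of 50% or more, 3.23 (2.73–3.82) with peaks up to 1000 bp apart joined, 4.01 (3.14–5.12) with scores at or above the list median and 4.81 (3.79–6.11) with scores of at least 100.

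**Figure D5:**
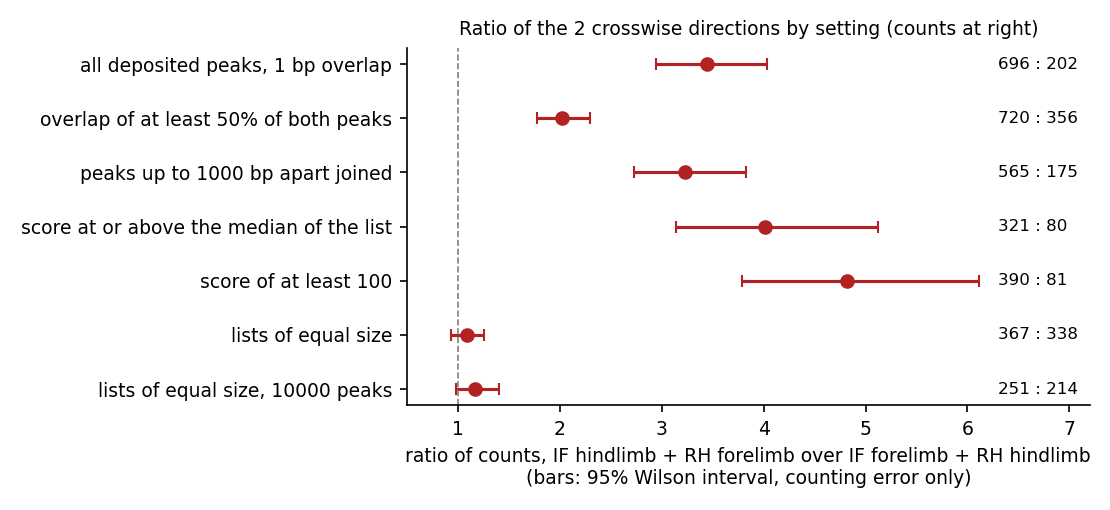
Ratio of the number of crosswise regions, Indian fantail hindlimb with racing homer forelimb over Indian fantail forelimb with racing homer hindlimb, under each setting, with 95% Wilson intervals for counting error and the counts at the right. The ratio lies between 2.02 and 4.81 where list lengths differ, and at 1.09 and 1.17 in lists of equal size, where the intervals include 1.

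The regions themselves changed with the settings as well. Of the 696 regions of the fantail hindlimb direction, 592 (85.1%) were still crosswise with a 50% overlap, 534 (76.7%) with peaks joined over 1000 bp and 222 (31.9%) in lists of equal size, where 406 were left with a single peak and 68 with none. Of the 202 of the fantail forelimb direction, 177 (87.6%), 174 (86.1%) and 112 (55.4%) were still crosswise, and 90 had a single peak left in lists of equal size. Equal list sizes removed no peak from the Indian fantail forelimb list, the shortest. Regions of the fantail hindlimb direction could lose either peak, those of the other direction only the racing homer hindlimb peak. The shares kept in lists of equal size are thus not comparable between directions. Where lists were shortened or a 50% overlap was asked for, the regions newly counted as crosswise had been in more lists. With a 50% overlap, 128 of 720 regions in the fantail hindlimb direction had been in 3 or 4 lists. In the fantail forelimb direction, 179 of 356 had been. In lists of equal size, 145 of 367 regions in the fantail hindlimb direction and 226 of 338 in the fantail forelimb direction had been in 3 or 4 lists. With scores at or above the list median, 315 of 321 and 79 of 80 had been.

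A small core stayed crosswise under several settings. With a 50% overlap, joining over 1000 bp and equal list sizes each applied in turn, 139 of 696 regions of the fantail hindlimb direction (20.0%) and 84 of 202 of the fantail forelimb direction (41.6%) stayed crosswise in all 3. These shares include equal list sizes, so they are not comparable between directions either. Adding a score of at least 100 left 23 (3.30%) and 4 (1.98%). Under all 5 planned settings, 5 regions of the fantail hindlimb direction and none of the fantail forelimb direction remained. They are the ones described above on scaffolds 314, 113, 231 and 347 and on scaffold 7 from 67767 to 71100. The setting with scores at or above the list median kept only 6 and 1 of the original regions. Those 6 are the regions named above for high percentiles in both lists, so the match follows from how they were named. The 1 region of the fantail forelimb direction had an overlap of 17.0% and could not meet the 50% setting.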

How the data were processed

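For each breed and limb the authors deposited a list of peaks, each with its score. The submitters' processing notes name CASAVA, Bowtie2 2.2.3, SAMtools, MACS 1.4.2 and MACS2 2.0.10.20130915. The study prepared the inputs as controls. The genome build, whether the inputs entered the calling of these peaks and how replicates were combined are not given in the sources used here. The lowest scores, near 50, look like MACS output, a multiple of a negative log10 p-value, but this scale was inferred and no score was converted. The other 2 deposited tables hold log10 likelihood ratios from the authors' comparison of hindlimbs between breeds, and were not used.

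Where a region held several peaks of a list, the highest-scoring one was described. Alternatives were a mutual overlap of 50%, joining over 1000 bp, scores at or above the list median or of at least 100, equal list sizes, and other gap and distance limits. Positions are 1-based, with scaffold numbers as deposited. No genome or annotation of that assembly was used, so no sequence is shown and no gene is named beyond those the study places in its candidate regions.

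Named regions were, per direction, the 6 with the highest lower percentile, the 2 with the lowest score and the 2 with the longest overlap. Also named were those in the 4 windows given above, the closest opposite pair and the densest window. The regions and rules were chosen with earlier results of these data known. Other regions were named after their values were seen. Python 3.11.15, numpy 2.4.6, scipy 1.17.1 and matplotlib 3.10.9 were used. On simulated data with 20000 planted regions, 5 of 5 checks of the code passed. The counts of each combination of lists matched those planted, and the other checks concerned gaps, overlaps and the joining of peaks. Every planted peak covered the centre of its region and planted regions lay more than 1000 bp apart. Chains of peaks and close neighbours were therefore little exercised.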

Additional observations from a re-analysis of the deposited data

How the results depend on the processing

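No paired analysis was possible because each deposited list combines the replicates of a breed and limb, and for the same reason no replicate could be left out. Depth is unknown from the lists, so its bearing on list length and on absent peaks was not tested. Of 98 values recomputed for the main results, 36 stayed close, 62 moved and 0 were labelled reversed. Close means within 1.5 times for a count and within the 95% interval of the reported value for a share, ratio or median. Among 48 recomputed shares of same-limb and same-breed partners, 12 stayed close and 36 moved. Each label concerns a single value, so a changed order of partners does not show in these counts. The order did change with lists of equal size. For racing homer forelimbs, the crosswise partner went from the most frequent (46.4%) to the least frequent (22.5%). For Indian fantail forelimbs, the same-limb share rose from 33.8% to 48.6%, while the same-breed share fell from 51.6% to 32.1%. The cause of the shifts was not tested. Equal list sizes also removed the lowest-scoring peaks of the longer lists, so list length and score cannot be told apart there.

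With a 50% overlap of both peaks, the fantail forelimb direction held 356 regions, of which 179 had been in 3 or 4 lists. The ratio was 2.02, and crosswise shares of two-list regions were 18.4% for Indian fantail forelimbs, 9.96% for racing homer hindlimbs and 34.4% for racing homer forelimbs. The median overlap in the fantail hindlimb direction was 73.1%, and median percentiles were 22.5 for its racing homer forelimb peaks, and 22.2 for Indian fantail forelimb and 26.6 for racing homer hindlimb peaks of the other direction. With joining over 1000 bp, the median overlap in the fantail hindlimb direction was 65.4%.

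With scores at or above the list median, the directions held 321 and 80 regions, 16.1% of two-list regions. Crosswise shares were 16.1% for Indian fantail hindlimbs, 12.0% for Indian fantail forelimbs, 5.06% for racing homer hindlimbs and 43.4% for racing homer forelimbs, and median overlaps were 77.8% and 78.3%. Median percentiles, within the shortened lists, were 27.5 for Indian fantail hindlimb and 16.2 for racing homer hindlimb peaks. With scores of at least 100, the directions held 390 and 81 regions (ratio 4.81), 15.6% of two-list regions. Crosswise shares were 15.6% for Indian fantail hindlimbs, 10.8% for Indian fantail forelimbs and 4.12% for racing homer hindlimbs, and median overlaps were 76.4% and 78.8%. Median percentiles, again within the shortened lists, were 29.9 for Indian fantail hindlimb and 17.7 for racing homer forelimb peaks. Percentiles within shortened lists are not on the scale of those within full lists.

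With lists of equal size, the directions held 367 and 338 regions (ratio 1.09), and crosswise shares were 19.3% for Indian fantail forelimbs, 18.1% for racing homer hindlimbs and 22.5% for racing homer forelimbs. The median percentile was 19.2 for Indian fantail hindlimb peaks, within their shortened list. It was 21.7 for Indian fantail forelimb peaks, whose list kept all its peaks. With 10000 peaks per list, chosen after seeing the data, the fantail hindlimb direction held 251 regions (ratio 1.17). Crosswise shares were 18.3%, 17.4% and 22.1% for the same 3 lists, and median overlaps were 75.0% and 79.9%. The median percentile of Indian fantail hindlimb peaks, within their shortened list, was 20.1.

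At gap limits of 200 and 5000 bp in place of 1000 bp, 4.60% and 33.0% of fantail hindlimb direction regions had an Indian fantail forelimb peak nearby, and 6.61% and 37.9% a racing homer hindlimb peak. In the fantail forelimb direction, 3.47% and 32.7% had an Indian fantail hindlimb peak nearby, and 1.49% and 26.7% a racing homer forelimb peak. At distances of 50 and 200 kb in place of 100 kb, there were 42 and 136 pairs of regions of the fantail hindlimb direction, 5 and 14 of the fantail forelimb direction and 22 and 73 of opposite direction.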
